A study of Homo sapiens with 6 samples.

Results

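The genes described are 10 enzymes that break down, recycle or use pyrimidine and purine bases (DPYD, GDA, UPP1, TYMP, TYMS, CDA, PNP, XDH, UCK2 and HPRT1), out of 28395 genes in the deposited count table. They were listed around DPYD and GDA, which were chosen by their measured rise from the control to the resistant libraries of these data, so the difference between the lines is given for this pair as a description, without a test. The other 8 were listed by function, with earlier results of these data known. RNA was sequenced from MDA-MB-468, a long-established line of human triple-negative breast cancer (control), and from MDA-MB-468-PR, which was derived from it by exposure to 3 to 4.5 nM paclitaxel, a microtubule-stabilising drug, for 2 months (resistant). Both lines are labelled untreated at harvest and grew in DMEM with 10% serum. Each line has 3 libraries. Replicate 1 of each is labelled as a 2020 batch, and the other 4 libraries as a 2021 batch. The resistant libraries all come from this single derivative, so paclitaxel and other events in its making cannot be told apart, and no label states that the replicates grew apart. The p-values therefore cover only how much these 6 libraries vary, which may be technical.

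Cells obtain nucleotides by building them from small precursors or by salvaging bases and nucleosides, and they lose them by catabolism. In pyrimidine catabolism, UPP1 and TYMP split nucleosides into base and sugar phosphate, and DPYD, dihydropyrimidine dehydrogenase, reduces uracil and thymine in the rate-limiting step. In purine catabolism, PNP releases guanine and hypoxanthine, GDA deaminates guanine to xanthine, and XDH oxidises hypoxanthine and xanthine to uric acid. DPYD is known in cancer medicine because it inactivates fluorouracil, and TYMP and TYMS are, respectively, an activating enzyme and the main target of fluoropyrimidine drugs.

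Total counts ranged from 37889818 to 93680129 per library, and 3 counts corresponded to 0.0312 to 0.0808 CPM, the count scaled to library size after TMM adjustment. Epithelial genes were abundant in all libraries (KRT8 at 1179 to 2176 CPM and EPCAM at 367 to 663 CPM). The oestrogen receptor gene ESR1 was at 0.738 to 4.55 CPM, and the progesterone receptor gene PGR had 0 counts in every library. ERBB2 was at 93.5 to 138 CPM. The 5 leukocyte markers summed to 10.8 to 21.1 CPM in the control and 10.5 to 18.1 CPM in the resistant line. Nearly all of that was CD14 and CSF1R, while PTPRC had 1 to 7 counts per library and CD3E and LYZ had 0 to 4. CD14 was at 6.51 to 18.7 CPM in the control and 9.19 to 15.9 CPM in the resistant libraries. CSF1R was lower in every resistant library than in any control library, at 1.23 to 2.12 against 2.38 to 7.78 CPM, but did not pass. The 8 fibroblast and endothelial markers summed to 25.3 to 33.6 and 26.2 to 28.4 CPM, mostly COL1A1 at 22.4 to 30.3 CPM, with LUM at 0 counts. Over these lists and the 8 epithelial genes, none of the 14 tested markers was called between the lines, and their part in the results was not tested. In the fit across all 13950 tested genes, 11.7% were called different between the lines and 22.9% between the batches (edgeR quasi-likelihood test, adjusted p under 0.05).

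The promoter stretches of DPYD, GDA and TYMP are shown because these were the tested members whose libraries separated the lines. Each is the 250 bases before a RefSeq start of the gene (GRCh38.p14), written 5′ to 3′ on the gene's strand, with matches to any of 6 searched motifs in capitals. DPYD lies on the minus strand of chromosome 1 (97077743 to 97921059) and its stretch is chr1:97921060-97921309. GDA lies on the plus strand of chromosome 9 (72114608 to 72259869), with its stretch at chr9:72149190-72149439, before a start inside the annotated span. TYMP lies on the minus strand of chromosome 22 (50525752 to 50530085), with its stretch at chr22:50530086-50530335.
DPYD: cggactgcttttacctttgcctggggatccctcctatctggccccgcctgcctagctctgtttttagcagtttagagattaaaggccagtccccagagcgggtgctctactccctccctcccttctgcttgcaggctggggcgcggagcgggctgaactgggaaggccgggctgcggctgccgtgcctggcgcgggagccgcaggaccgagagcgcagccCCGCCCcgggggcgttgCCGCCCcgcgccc
GDA: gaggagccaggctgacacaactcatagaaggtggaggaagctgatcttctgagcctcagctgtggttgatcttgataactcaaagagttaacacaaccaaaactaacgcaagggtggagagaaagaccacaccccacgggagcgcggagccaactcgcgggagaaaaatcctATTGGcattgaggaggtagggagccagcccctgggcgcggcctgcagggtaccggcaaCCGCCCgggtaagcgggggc
TYMP: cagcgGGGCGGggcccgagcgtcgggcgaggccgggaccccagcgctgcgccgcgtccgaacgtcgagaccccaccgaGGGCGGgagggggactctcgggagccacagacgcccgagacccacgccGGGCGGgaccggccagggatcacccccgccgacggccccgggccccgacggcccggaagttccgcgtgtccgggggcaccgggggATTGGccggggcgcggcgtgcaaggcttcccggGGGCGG
The motifs, searched on both strands, were TATAAA for the TATA box, CCAAT for the CCAAT box, GGGCGG for the GC box, TGANTCA for AP-1, GGAATG for TEAD factors and TTTNNCGC for E2F factors, and no match in these stretches overlapped another. GGGCGG was present on one strand or the other in all 3 stretches, as in 42.6% of the 35116 RefSeq promoters of that length. CCAAT was present in those of GDA and TYMP and in 32% of all promoters. The other 4 motifs had no match in these windows, and a match is only a description of the letters. The stretches held 20, 12 and 40 CpG dinucleotides for DPYD, GDA and TYMP, against a median of 11 over all promoters. The table lists a second start for DPYD and for TYMP, whose stretches are not printed.

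Of the 9 tested members, 3 had libraries that did not overlap between the lines, DPYD, GDA and TYMP, and all 3 were higher in the resistant line. Of all tested genes, 20.9% did not overlap, and 10.7% did not overlap and were higher. DPYD and GDA were chosen for their rise, so their separation is no support.

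DPYD, the first enzyme of uracil and thymine breakdown, was higher in the resistant line in both batches. It stood at 26.2, 13.6 and 15.5 CPM in control replicates 1 to 3 and at 78.6, 39 and 35.5 CPM in resistant replicates 1 to 3. All resistant libraries were above all control libraries, and within each line the 2020 library was the highest. The mean was 18.5 ± 6.79 CPM for control and 51 ± 23.9 CPM for resistant libraries (SD, n = 3), a fitted 2.69-fold difference (log2 difference 1.43 ± 0.11 SE). In bulk RNA, more cells with DPYD and more DPYD RNA per cell cannot be told apart. By size of rise DPYD ranked 312 of the 13950 tested genes. Antisense genes inside the DPYD locus could share reads, and DPYD-AS1 had 0 to 2 counts per library and DPYD-AS2 had 0.

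DPYD also differed between the batches in the fit with line and batch, and the batch played no part in choosing the gene. Its level was 1.95-fold lower in 2021 than in 2020 (log2 difference -0.97 ± 0.11 SE, adjusted p = 0.00145, edgeR quasi-likelihood test). Over all genes, 11.4% were called lower in 2021. None of the other 8 tested members was called for the batch, with adjusted p of 0.0663 (HPRT1) to 0.935 (UPP1). The labels do not say what differed between the batches.

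GDA, which removes guanine from the salvageable pool by turning it into xanthine, showed the larger rise. The control libraries held 2.06, 2.88 and 1.08 CPM and the resistant libraries 9.45, 7.73 and 13.3 CPM, from 73 to 161 and 351 to 1280 counts. The lines did not overlap. Means were 2.01 ± 0.902 and 10.2 ± 2.85 CPM (SD, n = 3), and the fitted difference was 5.1-fold (log2 difference 2.35 ± 0.38 SE), which ranked 93 among the tested genes. Control replicate 3 was the lowest library of its line and resistant replicate 3 the highest of its own. Leaving out 1 library at a time gave fitted log2 differences of 2 to 2.8 for GDA and 1.34 to 1.5 for DPYD.

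**Figure D1:**
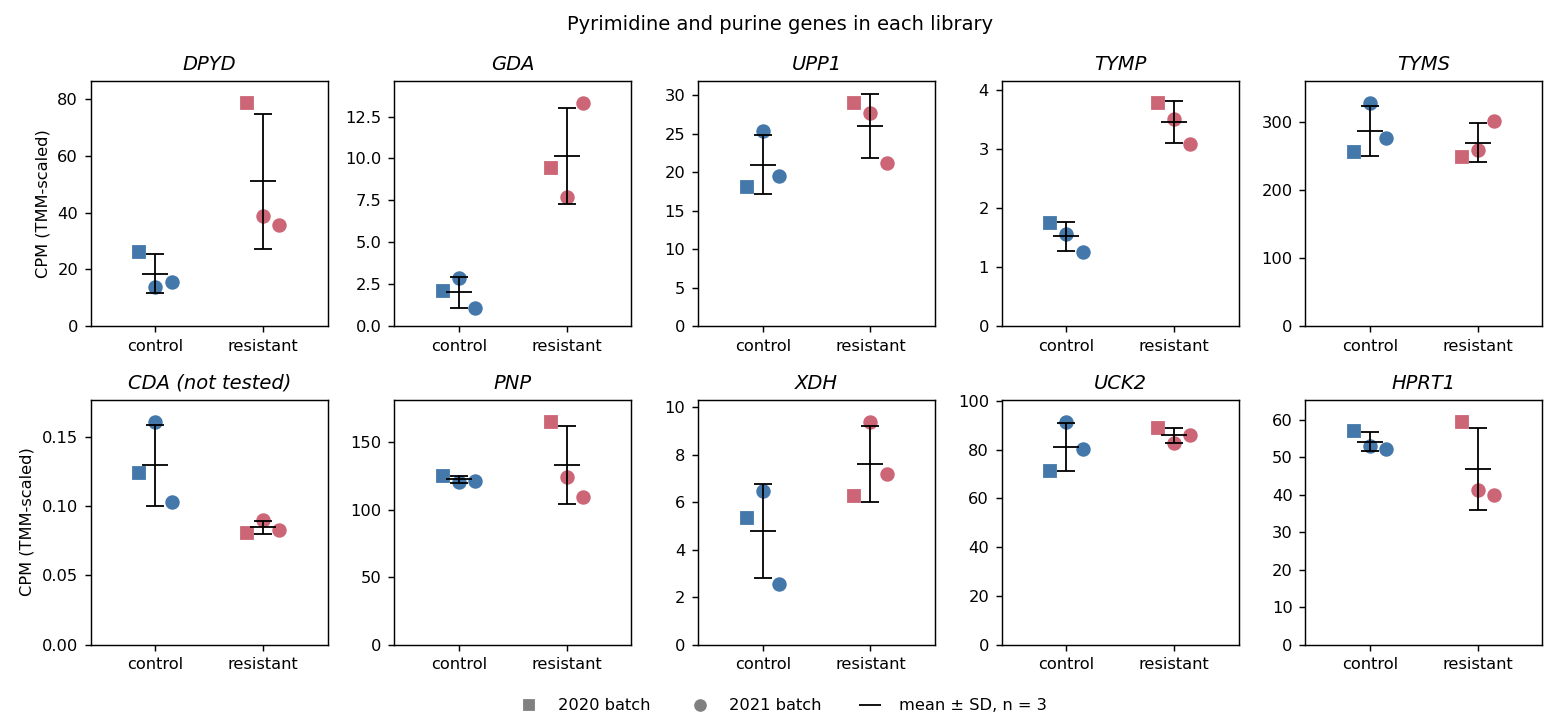
CPM of the 10 enzymes in each library, with squares for the 2020 batch, circles for the 2021 batch and bars for the mean ± SD of 3 libraries; each axis starts at 0. The resistant libraries of DPYD, GDA and TYMP lie above all control libraries, and CDA, at 0.0808 to 0.161 CPM, rests on 3 to 9 counts per library.

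Of the 7 other tested members, 1 rose (TYMP), none fell and 6 did not pass. TYMP, thymidine phosphorylase, converts thymidine to thymine, which is a substrate of DPYD. TYMP was at 1.74, 1.56 and 1.25 CPM in control replicates 1 to 3 and at 3.77, 3.51 and 3.07 CPM in resistant replicates 1 to 3. The lines did not overlap, at 70 to 87 counts against 140 to 296. The rise was 2.29-fold (log2 difference 1.19 ± 0.21 SE, adjusted p = 0.00814, edgeR quasi-likelihood test), and 6.23% of all tested genes were called higher. TYMP kept its call in each of the 14 alternatives, with adjusted p up to 0.0487. SCO2, a mitochondrial copper protein gene that overlaps TYMP, was at 8.73 ± 2.41 and 8.81 ± 1.44 CPM (log2 difference 0.03 ± 0.16 SE, adjusted p = 0.935). How reads in that overlap were assigned is not given in the sources used.

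UPP1, uridine phosphorylase, did not pass. The control libraries were at 18, 25.3 and 19.5 CPM and the resistant libraries at 28.9, 27.7 and 21.2 CPM, with overlap between the lines. The log2 difference was 0.31 ± 0.17 SE (adjusted p = 0.292), made up of 0.68 in 2020 and 0.13 in 2021. CDA, cytidine deaminase, which turns cytidine into uridine, was near the floor, with counts of 5, 9 and 7 for the control and 3, 6 and 8 for the resistant libraries. On the CPM scale the resistant libraries, at 0.0808 to 0.09, lay below the control libraries, at 0.103 to 0.161. Such counts were too few for the filter on low counts, so CDA was not tested.

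Of the purine enzymes, XDH, which acts directly after GDA, was at 5.34, 6.45 and 2.57 CPM for control against 6.25, 9.39 and 7.19 CPM for resistant libraries. The lines overlapped, since resistant replicate 1 lay below control replicate 2. Its log2 difference of 0.67 ± 0.34 SE did not pass (adjusted p = 0.267), and leaving out single libraries moved it between 0.3 and 1.05. PNP, which supplies guanine to GDA, stood at 125, 120 and 122 CPM in the control and at 165, 124 and 109 CPM in the resistant libraries. The control libraries of PNP lay close together, and the resistant ones reached from below to above them (log2 difference 0.1 ± 0.12 SE, adjusted p = 0.655). HPRT1, which salvages guanine and hypoxanthine and so competes with breakdown, was at 57, 52.9 and 52.3 CPM for control against 59.4, 41.3 and 39.9 CPM for resistant libraries. In 2021 both resistant libraries of HPRT1 were below both control libraries, and in 2020 the resistant library was slightly above. Its log2 difference was 0.06 in 2020 and -0.37 in 2021, and the overall value of -0.23 ± 0.11 SE did not pass (adjusted p = 0.23).

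TYMS, thymidylate synthase, which makes thymidylate for DNA synthesis, was at 257, 328 and 277 CPM in the control and 249, 259 and 303 CPM in the resistant libraries. Its lines overlapped and the log2 difference was -0.09 ± 0.12 SE (adjusted p = 0.682). The antisense neighbours that overlap it could share reads, since no strand setting is given. ENOSF1, at 83 ± 8.44 and 89.9 ± 7.08 CPM, did not pass (adjusted p = 0.551), and neither did TYMSOS at 5.28 ± 0.615 and 3.57 ± 0.423 CPM (adjusted p = 0.0739). UCK2, which phosphorylates uridine and cytidine for salvage, was at 71.3, 91.4 and 80.4 CPM for control against 88.6, 82.7 and 86.1 CPM for resistant libraries (log2 difference 0.09 ± 0.11 SE, adjusted p = 0.654). The resistant values of UCK2 all fell inside the control range.

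Levels were compared between genes per length, and how evenly the exome probes capture each gene was not tested. Per kilobase of coding sequence in GENCODE 29, the control order was TYMS at 306 ± 39.1, PNP at 141 ± 2.91, UCK2 at 98.9 ± 12.2, HPRT1 at 82.6 ± 3.89, UPP1 at 22.5 ± 4.11 and DPYD at 5.93 ± 2.18 CPM per kb (SD, n = 3). Neighbours in that part of the order did not overlap over the 3 libraries. GDA at 1.42 ± 0.638, XDH at 1.2 ± 0.501 and TYMP at 1.04 ± 0.168 CPM per kb followed, where GDA overlapped XDH and XDH overlapped TYMP. CDA was the lowest, below every library of TYMP, at 0.296 ± 0.0666 CPM per kb. In the resistant line DPYD stood at 16.4 ± 7.69 CPM per kb, where its range overlapped that of UPP1 at 27.9 ± 4.45. There GDA at 7.18 ± 2.01 CPM per kb was above XDH at 1.9 ± 0.404 and TYMP at 2.36 ± 0.241 in every library.

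The difference between the lines was also read within each batch. DPYD differed by 1.58 in 2020 and 1.35 in 2021 on the log2 scale, GDA by 2.18 and 2.5, and TYMP by 1.1 and 1.21. XDH had 0.22 and 1.01. The 2020 values rest on 1 library per line. A term for a difference between batches in the effect of the line passed for none of the 13950 genes (edgeR quasi-likelihood test), and 187 genes had an unadjusted p under 0.05. DESeq2 called 2 genes for that term. No member was among the 187, and the lowest unadjusted p of a member was 0.0886 for HPRT1. With 2 residual degrees of freedom its errors were wide, at a log2 difference between the batches of -0.23 ± 0.26 SE for DPYD and 0.23 ± 0.94 SE for GDA.

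**Figure D2:**
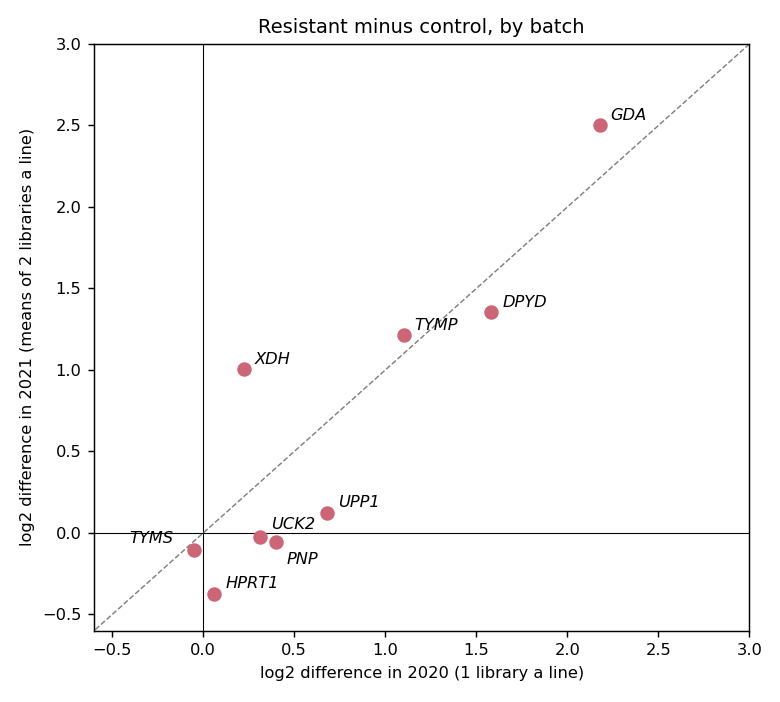
Log2 difference between the lines in 2020 (x axis, 1 library per line) and in 2021 (y axis, means of 2 libraries per line) for the 9 tested enzymes; the dashed line marks equal values. GDA, DPYD and TYMP lie above 1 on both axes, and XDH lies at 0.22 and 1.01.

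The wider pathway was described with 7 lists of nucleotide genes, 79 genes in all, of which 73 were tested. Without DPYD and GDA, 3 of 71 tested genes were called higher and 3 lower, and 65 did not pass. Among all tested genes 6.23% were called higher and 5.48% lower. The median log2 difference over the 71 genes was -0.02, against -0.00391 over all tested genes. Besides TYMP, the genes called higher were ADSS1 and PRTFDC1, of which the latter passed the filter on low counts only through its resistant libraries, and those that fell were CTPS2, PRPS2 and SLC29A1.

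Among the 9 tested genes of pyrimidine catabolism besides DPYD, TYMP rose, none fell and 8 did not pass. The enzymes that follow DPYD were looked at for their place in the pathway. DPYS, dihydropyrimidinase, had 0 to 7 counts per library and was not tested. UPB1, beta-ureidopropionase, was at 0.994, 0.84 and 2.24 CPM in the control and 0.889, 2.43 and 1.45 CPM in the resistant libraries, and did not pass (adjusted p = 0.805). AGXT2, which acts on the final product of thymine breakdown, had 0 to 4 counts per library.

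Of the 12 tested genes of purine catabolism besides GDA none passed, and 10 had a log2 difference above 0, with a median of 0.14. Over all 13950 tested genes, 6886 lay above 0 and the median was -0.00391. NT5C1A (2 to 7 counts in control and 9 to 20 in resistant libraries) and AOX1 (7 and 15 to 25) are among those above 0. Both passed the filter on low counts only through their resistant libraries, where they are high, so their place above 0 is no support. Whether the list leans away from all tested genes was not tested. The cytosolic nucleotidase NT5C2, the one with the highest mean CPM, was at 132 ± 25.6 and 159 ± 35.6 CPM (log2 difference 0.26 ± 0.09 SE, adjusted p = 0.112).

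Purine salvage had 1 of 6 tested genes called higher, PRTFDC1. PRTFDC1, a close relative of HPRT1, went from counts of 2, 7 and 4 in the control libraries to 24, 43 and 37 in the resistant ones. Its means were 0.0779 ± 0.0411 and 0.559 ± 0.151 CPM. PRTFDC1 entered the tested genes only through the resistant libraries, where it is high, and a filter at a mean of 1 CPM removed it, so its call is not support for a difference and no p is given. None of 10 pyrimidine salvage genes passed, with a median of -0.23. The one with the highest mean CPM, the kinase CMPK1, was at 151 ± 38.7 and 153 ± 42.2 CPM (log2 difference 0.02 ± 0.1 SE).

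Synthesis genes changed at single members. CTPS2, a CTP synthase, fell from 87.4, 72.1 and 72.9 CPM in the control to 42.3, 37.2 and 34.6 CPM in resistant libraries, without overlap. The fall was 2.04-fold (log2 difference -1.03 ± 0.09 SE, adjusted p = 0.000778, edgeR quasi-likelihood test). The other 12 of 13 tested genes of pyrimidine and deoxynucleotide synthesis did not pass. Of the 13, 2 lay above 0, with a median of -0.19, beside 6886 of all 13950 tested genes above 0. PRPS2, which makes the phosphoribosyl donor of both nucleotide families, fell 1.34-fold from 91.8 ± 6.9 to 68.4 ± 4.65 CPM (adjusted p = 0.0206). ADSS1, an adenylosuccinate synthase, rose 1.64-fold from 3.08 ± 0.303 to 5.04 ± 0.554 CPM (adjusted p = 0.0264), and 11 of the 13 purine synthesis genes did not pass. SLC29A1, the equilibrative nucleoside transporter ENT1, fell 1.38-fold from 22 ± 7.66 to 15.7 ± 5 CPM (adjusted p = 0.0391), while the other 7 of 8 transporters did not pass. The lines overlapped for SLC29A1, which was 1.89-fold higher in 2021 than in 2020 (adjusted p = 0.00447).

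Calls of PRPS2 and ADSS1 ended without control replicate 1 or without any single resistant replicate (adjusted p up to 0.102 and 0.127). SLC29A1 also lost its call without control replicate 2 (adjusted p up to 0.165), and all 3 genes lost it without the batch term (0.126 to 0.577) and in the 2021 libraries alone (0.0866 to 0.128). CTPS2 and PRPS2 lie on the short arm of chromosome X, at 16587999 to 16712910 and 12791412 to 12824222. The 3 other listed genes of that chromosome, all on its long arm and read after the values of CTPS2 and PRPS2 were seen, did not pass: UPRT at a log2 difference of -0.28, PRPS1 at -0.26 and HPRT1 at -0.23.

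**Figure D3:**
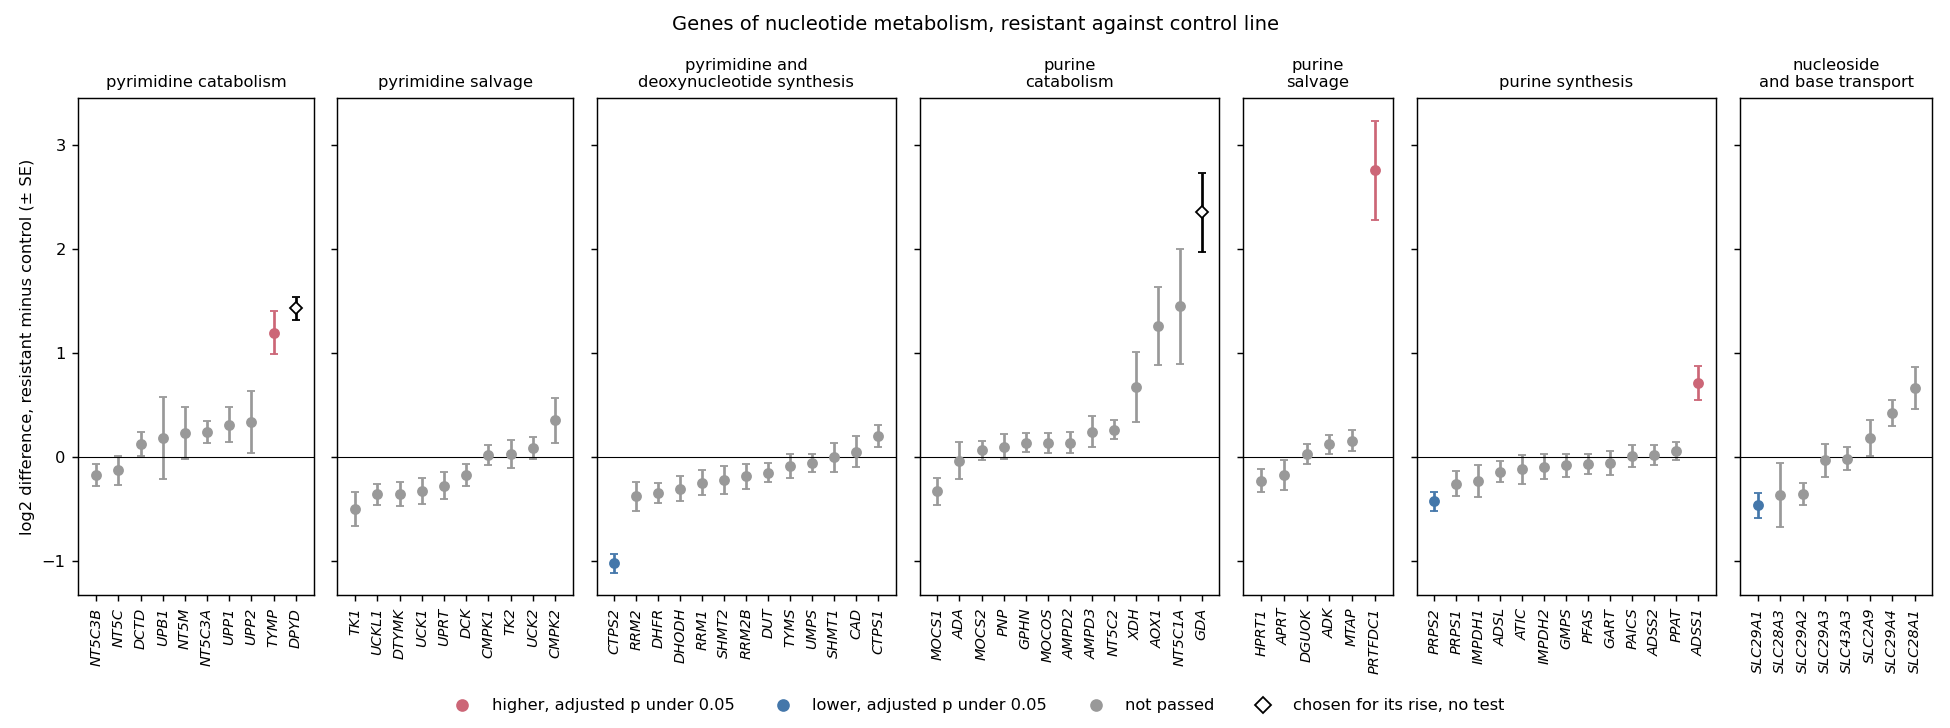
Log2 difference between the lines (± SE) for the 73 tested genes of 7 nucleotide lists, with each gene in the first list that holds it; filled colours mark genes past the threshold and open diamonds mark DPYD and GDA, given without a test. Of the 71 other genes 3 were called higher and 3 lower.

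Genes beside DPYD and GDA on the chromosome were read for comparison. The 2 nearest tested genes on each side of DPYD were RWDD3 and PTBP2, at log2 differences of -0.1 and 0.64, and SNX7 and PALMD, at 0.35 and 0.82. PALMD, which encodes palmdelphin, was the only one of these 4 that passed (1.77-fold, adjusted p = 0.00248). Within 3000 kb of DPYD, 2 of 25 tested genes were called higher and none lower, with a median of 0.19, where 6.23% of all tested genes were called higher and 5.48% lower. ABHD17B and C9orf85 on one side of GDA had 0.08 and 0.17, and ZFAND5 and TMC1 on the other had 0.19 and 0.95. TMC1, a mechanotransduction channel gene 262 kb away, passed (1.93-fold, adjusted p = 0.0138). Within 3000 kb of GDA, 4 of 18 tested genes were called higher, none lower, and the median was 0.16, beside the same 6.23% and 5.48% over all tested genes. No neighbour of either gene in these windows rose as much as DPYD or GDA did. This is no support, since DPYD and GDA were chosen for their rise and the neighbours were not.

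TYMP was examined in the same way after its values had been seen. CIMAP1B lies 0.341 kb before its start on the same strand and rose 2.08-fold, from 0.889 ± 0.2 to 1.82 ± 0.311 CPM (adjusted p = 0.0324). KLHDC7B, 15.8 kb away on the opposite strand, rose 2.25-fold (adjusted p = 0.0216). NCAPH2 and LMF2 on the other side were at log2 differences of -0.06 and -0.23 and did not pass. In the 3000 kb window, 5 of 28 tested genes were called higher and none lower, with a median of 0.04, beside 6.23% and 5.48% of all tested genes. Besides CIMAP1B and KLHDC7B, the genes called higher there were PANX2 (2.27-fold), SHANK3 (1.86-fold) and MAPK12 (1.49-fold). Whether reads were shared between TYMP and CIMAP1B was not tested.

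**Figure D4:**
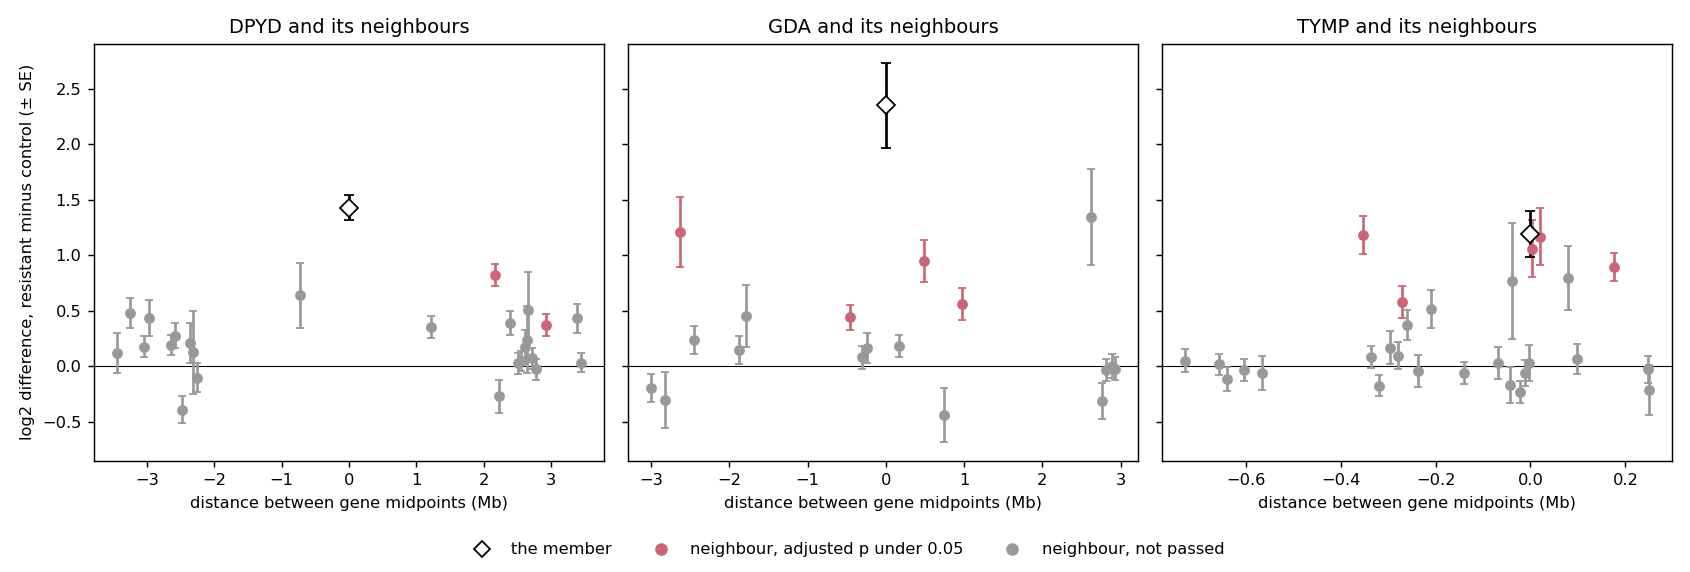
Log2 difference between the lines (± SE) of tested genes within 3000 kb of DPYD, GDA and TYMP, against the distance between gene midpoints in Mb; the open diamond is the named enzyme. DPYD and GDA, which were chosen for their rise, lie above all plotted neighbours, while PANX2, CIMAP1B and KLHDC7B lie close to TYMP in log2 difference.

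Genes with the most similar profile over the 6 libraries were found by the root mean square difference of log2 CPM, each gene centred on its own mean, among 12206 genes whose mean reached 1 CPM. These likenesses describe 6 libraries and carry no test, and a shared order of libraries largely follows from how the genes were found. For DPYD these were GNG11, a G protein subunit (0.14), the cytokine gene IL15 (0.17) and the adaptor gene SORBS2 (0.2). GNG11 was at 1.76, 1.14 and 1.12 CPM for control against 5.06, 3.21 and 2.55 CPM for resistant libraries, and so was highest in the 2020 library of each line, as DPYD was. For GDA they were MSRB3, a methionine sulfoxide reductase (0.17), GABBR2, a GABA receptor subunit (0.3), and COL12A1, a collagen (0.32). MSRB3 went from 0.572, 0.93 and 0.413 CPM in the control to 3.58, 3.11 and 4.67 CPM in resistant libraries. As for GDA, control replicate 3 was its lowest library and resistant replicate 3 its highest.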

How the data were processed

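RNA was captured with exome probes from 100 ng of total RNA, per the labels' protocols. The authors deposited raw whole-number counts for each Entrez gene, in 6 columns matched to samples by library name. Trimmomatic 0.38, STAR 2.7.8a and featureCounts of Subread with GRCh38 are named, per the submitters' processing notes. The annotation release, strand setting and treatment of reads with several matches were not given in the sources used here. Of 28395 IDs, 27745 matched a RefSeq gene table of GRCh38.p14. Pairs of libraries of 1 line differed beyond sampling error, with 70.5 to 217 times the chi-square that counting alone gives.

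Genes were filtered with filterByExpr by line, which kept 13950 and 9 of the 10 members, and scaled by TMM. edgeR 4.0.16 fitted line and batch with a robust quasi-likelihood fit (3 residual degrees of freedom), and p-values were adjusted by Benjamini-Hochberg over all tested genes. Standard errors derive from the F statistic. Log2 CPM used a prior count of 2. The members and lists were chosen with earlier results of these data known. Named genes are the members, up to 4 called genes per list and direction or else its most abundant gene, overlapping genes, the 2 nearest tested genes on each side of DPYD and GDA, and their 3 most similar profiles. DPYS, UPB1, AGXT2, UPRT, PRPS1, the neighbours of TYMP and the markers are named outside that rule, after their values were seen.

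Deviations from the line mean of same-numbered libraries correlated at 0.729, 0.143 and 0.155, so the numbers were treated as pairs in an alternative fit. Within 2021 the crossed numbers correlated more, at 0.57 and 0.477. Other alternatives were DESeq2 1.42.0 as a test or for its size factors, limma 3.58.1 with voom, tests without the filter or of genes with a mean of at least 1 CPM, no batch term, the 2021 batch alone and leaving out each library. All columns were used. Promoter sequences are from RefSeq, where all 10 members matched.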

Additional observations from a re-analysis of the deposited data

How the results depend on the processing

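Over the 14 alternatives, DPYD and GDA had log2 differences of 1.34 to 1.5 and 2 to 2.8. Their direction could not turn, since they were chosen for their rise and their libraries do not overlap, so it is no support. TYMP and CTPS2 kept their calls in all 14. With the replicate block in place of the batch, 1303 genes differed between the lines (1633 with the batch term) and 6 of the wider lists, and no call of a gene named from the lists changed. Of 71 tested list genes without DPYD and GDA, 6 were called, against 14 with DESeq2 and 3 without the batch term. In the 2021 batch alone 3 were called, and 13 without a filter, where more list genes were tested. Leaving out 1 library gave 3 to 11, with 3 without control replicate 1 or any resistant replicate and 11 without control replicate 3. Over all genes, 2286 of 18878 were called without a filter and 2204 of 13950 with DESeq2, against 1633 in the main fit. There were 362 without the batch term, 1012 in 2021 alone and 617 to 1985 without 1 library, lowest without resistant replicate 3. Genes called between the batches numbered 1186 to 4357 without 1 library of 2021 (3196 with all), lowest without resistant replicate 3. The line by batch term gave 17 genes without a filter, 2 with DESeq2 and 0 to 4 without 1 library.

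PNP and UCK2, which did not pass, changed sign in 2021 alone (-0.055 and -0.028), without control replicate 1 (-0.066 and -0.038) and without resistant replicate 1 (-0.055 and -0.028), and the cause was not tested. Without 1 library PNP ranged from -0.066 to 0.18 and UCK2 from -0.038 to 0.17. Leaving out replicate 1 of either line leaves 1 library in 2020, whose batch term then absorbs it. UPP1, TYMS, XDH and HPRT1 passed in no alternative. CDA, DPYS and AGXT2 had at most 9 counts in any library and were not tested. The median of all genes moved by less than 0.1 under each scaling.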
